A study of Mus musculus with 9 samples.

Results

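The comparison described here set 3 whole-kidney libraries from Col4a3 knockout mice treated against the microRNA miR-21 with an antimiR, its inhibitor (KO_antimiR21), against 3 from Col4a3 knockout mice given phosphate-buffered saline (KO_PBS). These 6 of the series' 9 libraries were chosen by their titles, and the remaining 3, from wild-type mice with no treatment (WT), are given only beside them. All mice were of the 129X1/SvJ strain and the libraries were made at 9 weeks of age. Both compared groups carried the knockout, and the sample titles separate them by the inhibitor or saline given. A code in the deposited library names, described further on, also divides them in part. The dose, the schedule, the chemistry of the inhibitor and a control oligonucleotide are not given in the sources used here. It is also not stated whether separate mice gave the 3 libraries of each group, so p-values here cover only the spread between these samples.

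Col4a3 codes for a chain, alpha-3, of type IV collagen, and this chain joins the alpha-4 and alpha-5 chains in the mature glomerular basement membrane. Without it the filter fails, protein leaks into the urine, and the tubules and interstitium scar, which makes the knockout a mouse model of Alport syndrome. A microRNA guides a silencing complex to messenger RNAs by pairing its seed with sites that lie mostly in their 3' untranslated regions (3' UTRs), and paired messages are translated less and decay faster. miR-21 rises in injured kidney, where its known targets include brakes on growth signalling and the fatty acid oxidation factor Ppara. An anti-miR is an oligonucleotide that pairs with the microRNA and occupies it, so that targets are released.

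The mature miR-21 of the mouse and sites for it in 6 published targets are shown because the inhibitor pairs with the first and any release would act through the second. The microRNA (mmu-miR-21a-5p, 22 bases) lies at chr11:86584120-86584141 on the minus strand of GRCm38.p6, per RefSeq, and its seed, bases 2 to 8, is in capitals. Sites come from the longest annotated 3' UTR of each gene in GENCODE vM21, on GRCm38, and capitals mark the 8-base site ATAAGCTA, which is the complement of the seed followed by an A. The counts were made on another build, mm9, so these positions were not joined to them.
miR-21a-5p: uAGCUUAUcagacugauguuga
Pdcd4: gtgtgggtgttctgATAAGCTActtt
Spry1: atgtaagtgcttaaATAAGCTAtata
Spry2: gagacccacattgcATAAGCTAaagc
Reck: ttttacagtttgaaATAAGCTAttaa
Timp3: tttttgagctttcaATAAGCTAtagc
Ppara: tcgagaatagtttgATAAGCTAtccc
The printed stretches lie in the 3' UTRs at chr19:53929418-53929443 on the plus strand (Pdcd4, a translation inhibitor), chr3:37643859-37643884 on the plus strand (Spry1) and chr14:105892494-105892519 on the minus strand (Spry2), the last pair being inhibitors of receptor tyrosine kinase signalling. Those of Reck and Timp3, inhibitors of matrix metalloproteinases, lie at chr4:43944393-43944418 and chr10:86348213-86348238, and that of Ppara at chr15:85801815-85801840, all on the plus strand.

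Libraries held 26448275 (KO_antimiR21 1) to 31786624 (KO_PBS 1) expected counts, and 17315 of 22637 gene symbols passed the filter on low counts. Kidney markers were high in every library, with the summed level of 31 proximal tubule markers between 6198 and 58050 CPM (counts relative to the scaled library total). Y-linked transcripts summed to 101.8 to 114.6 CPM over the 6 knockout libraries, so these did not differ in sex by that measure. They summed to 117.7 CPM in WT 2 but to 0.928 and 1.49 CPM in WT 1 and 3, whose deposited names carry an F where that of WT 2 carries an M. Only WT 2 therefore matched the knockout libraries in this measure, and the part of sex in the values set beside WT was not tested. The WT libraries also entered the fit behind the standard errors and p-values given below. The part of their sex in those was not tested either. The 3 inhibitor libraries did not lie together. On the first principal component, with 51.8% of the variance, KO_antimiR21 2 stood at 45.9, beside KO_PBS 2 and 3 at 49.0 and 46.7, while KO_antimiR21 3 stood at -13, between the knockout and the WT libraries (-91.0 to -61.4). KO_antimiR21 1 stood at 27.4. Across genes, the library most like KO_antimiR21 2 was KO_PBS 3 (r = 0.985), and the one most like KO_antimiR21 3 was WT 2 (r = 0.975).

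**Figure D1:**
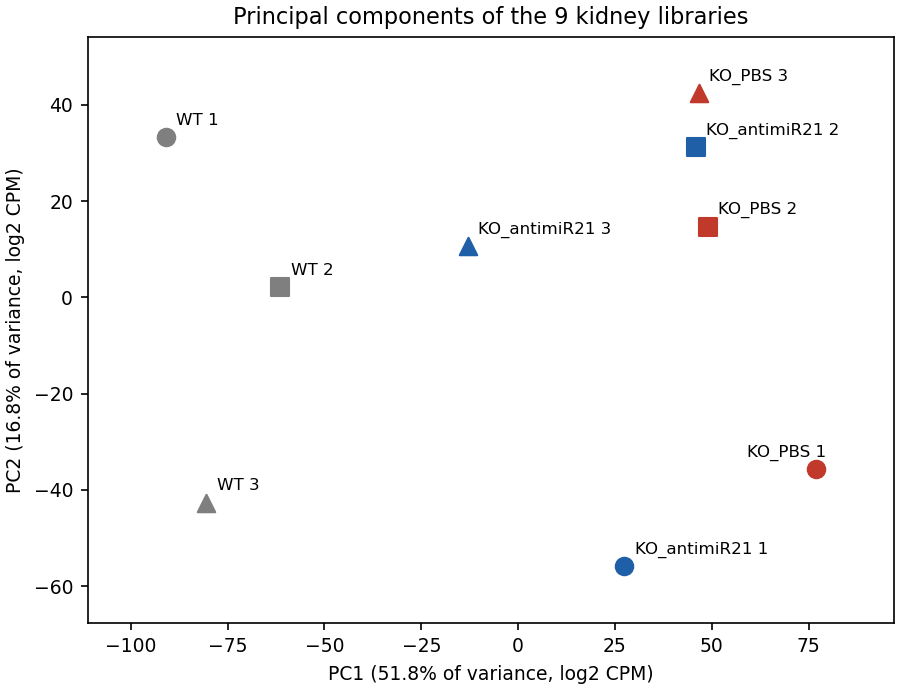
Each point is 1 library, placed by its first principal component (horizontal, 51.8% of variance) and second (vertical, 16.8%) of log2 CPM. Colours mark the groups and symbols the replicate numbers. KO_antimiR21 2 lies among the KO_PBS libraries, and KO_antimiR21 3 lies between them and WT.

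Other features moved with single libraries. Genes of fat cells stood apart in KO_antimiR21 3, where 7 such genes summed to 402.6 CPM against 27.46 to 73.2 CPM in the other 5 knockout libraries. Among them, Adipoq (adiponectin) was at 28.3 CPM in that library and at 0.0388 to 2.57 CPM in the others. The list's median log2 fold change was 2.64 with all libraries and -1.51 without KO_antimiR21 3. Erythrocyte genes were higher in all 3 inhibitor libraries, as described further on. The deposited library names also carry an unexplained code, L4 on KO_PBS 1 and 2 and all WT libraries, and L5 on KO_PBS 3 and all KO_antimiR21 libraries. Only KO_PBS 3 shares a code with the inhibitor libraries, and what the code stands for cannot be told apart from the treatment in the other pair of PBS libraries. For this reason a fit with the code as a covariate, which leaves KO_PBS 3 alone to set against the inhibitor libraries, is quoted for the main gene groups, with the value without a single library where it differed by over 1.5 times.

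The deleted gene, Col4a3, checks the genotype. Its level was 44.3, 94.3 and 60.2 CPM in KO_PBS 1, 2 and 3 and 104, 70.6 and 138 CPM in KO_antimiR21 1, 2 and 3, against 257 to 371 CPM in WT. All 6 knockout libraries were thus below WT, and the treated and PBS libraries overlapped. The log2 fold change between them was 0.65 ± 0.32 (SE), with a 95% interval of -0.07 to 1.37 (edgeR adjusted p = 0.707). Reads from any part of the transcript left by the deletion are included in this level. For the partner chains the values were 0.14 ± 0.32 for Col4a4 and 0.09 ± 0.23 for Col4a5 (edgeR adjusted p = 0.966 and 0.971).

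Across the 17315 genes, the edgeR quasi-likelihood test called 0 higher and 0 lower in KO_antimiR21 at an adjusted p under 0.05, and the lowest adjusted p was 0.707. At an unadjusted p under 0.05 there were 618 higher genes (3.57% of those tested) and 585 lower genes (3.38%). DESeq2, which was allowed a higher share of false calls than edgeR on simulated data, called 6 higher and 12 lower. The median 95% interval, taken per gene and without adjustment, reached 0.563 to either side on the log2 scale. It is not a limit of detection after adjustment. In edgeR 701 genes had an estimate of at least 1 in either direction, and none of them passed. All 3 inhibitor libraries were above all 3 PBS libraries for 663 genes (3.83%) and below them for 1186 (6.85%). For any 1 such gene an exact two-sided permutation test over the 6 libraries gives p = 0.1, the smallest that 3 against 3 allows. When counts were scaled by library size alone, the unadjusted counts were 338 higher and 954 lower. That scaling put the median of all genes at -0.141 on the log2 scale, where TMM, used throughout, put it at -0.011. In the same edgeR fit 4226 genes passed between KO_PBS and WT and 1238 between KO_antimiR21 and WT. Those comparisons share KO_PBS or KO_antimiR21 with this one.

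**Figure D2:**
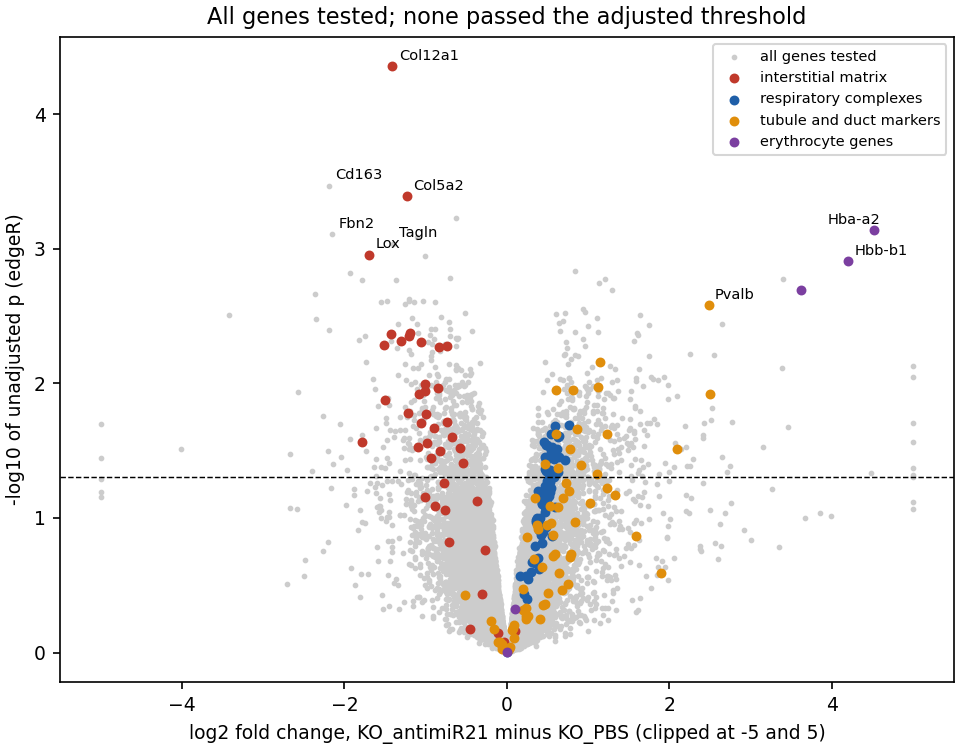
Each point is 1 of the 17315 genes tested, with its log2 fold change (KO_antimiR21 minus KO_PBS, clipped at -5 and 5) on the horizontal axis and -log10 of the unadjusted edgeR p on the vertical axis. The dashed line is an unadjusted p of 0.05, and colours mark 4 sets of gene lists. Interstitial matrix genes lie mostly to the left and respiratory complex genes to the right, and no gene passed after adjustment.

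Unless another value is given, each gene named from here on had an edgeR adjusted p of 0.707, so none passed. The gene groups were compiled with the KO_PBS against WT results known, and KO_PBS enters both comparisons, so a group's direction here is not independent of that choice. In whole tissue, fewer cells of a type and less RNA per cell cannot be told apart.

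Genes of the interstitial matrix, the collagens, glycoproteins and cross-linking enzymes that build a scar, had the lowest median of all lists after the immediate early genes. Of 42 tested, 29 were lower at an unadjusted p under 0.05 (69.0%, against 3.38% of all genes) and 0 higher, and the same number had no overlap between the groups (against 6.85%). Their median log2 fold change was -0.913, against -0.011 over all genes. By library the list's median deviation from the KO_PBS mean was -0.673, -0.726 and -1.58 in KO_antimiR21 1, 2 and 3, and -0.072 to 0.138 in KO_PBS. All 3 inhibitor libraries, KO_antimiR21 2 included, therefore lay outside the PBS range. The median was -0.625 without KO_antimiR21 3, and -0.766 with the library code as a covariate. Against WT the list stood 2.27 higher in KO_PBS and 1.23 higher in KO_antimiR21 (medians on the log2 scale).

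Col12a1, a collagen that decorates fibrils, had the lowest p of all genes. It stood at 65.9, 71 and 63.7 CPM in KO_PBS and at 23.5, 32.6 and 19.4 CPM in KO_antimiR21, with 10.2 to 12.7 CPM in WT. The groups did not overlap, and all inhibitor libraries were below the PBS and above the WT libraries. Its log2 fold change was -1.41 ± 0.19 (95% interval -1.84 to -0.98, DESeq2 adjusted p = 1.84e-06). Col5a2, a chain of the type V collagen that nucleates fibrils, stood at 90.8, 97.6 and 73.5 CPM in KO_PBS against 35.1, 49.3 and 26.7 CPM, a log2 fold change of -1.24 ± 0.23 (DESeq2 adjusted p = 0.00384). Lox, the lysyl oxidase that cross-links collagen, stood at 39.5, 33.3 and 23.7 CPM against 6.48, 15.2 and 8.16 CPM (-1.69 ± 0.36, DESeq2 adjusted p = 0.00983). All 3 genes passed in DESeq2 and not in edgeR.

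The abundant fibrillar collagens also had groups without overlap. Col3a1 stood at 852, 1039 and 771 CPM in KO_PBS and at 436, 468 and 178 CPM in KO_antimiR21 (log2 fold change -1.30 ± 0.35). Col1a1 was at 394, 438 and 384 CPM against 195, 188 and 68.3 CPM (-1.43 ± 0.38). KO_antimiR21 3 held the lowest value of both. Fn1, which encodes fibronectin, stood at 330 to 400 CPM in KO_PBS and at 215, 262 and 86.3 CPM with the inhibitor (-0.98 ± 0.37). Fbn2, a microfibril protein, was at 5.37 to 5.89 CPM against 0.588 to 2.13 CPM (-2.15 ± 0.43, DESeq2 adjusted p = 0.00736). Timp1, an inhibitor of matrix proteases, was the least even, at 195, 74.5 and 50.2 CPM in KO_PBS and 41.9, 34.4 and 16.3 CPM in KO_antimiR21 (-1.79 ± 0.68).

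Basement membrane genes differed less as a group. Of 22 tested, 6 were lower at an unadjusted p under 0.05 (27.3%, against 3.38% of all genes) and 0 higher, and 8 were lower without overlap (36.4%, against 6.85%). The median was -0.327, and -0.35 with the code as a covariate. By library the list's median was -0.44, -0.128 and -0.481 in KO_antimiR21 and -0.205 to 0.145 in KO_PBS. KO_antimiR21 2 thus lay within the PBS range. The 2 chains of the common type IV collagen led the list. Col4a1 stood at 832, 1053 and 946 CPM in KO_PBS and at 499, 561 and 327 CPM in KO_antimiR21 (-1.03 ± 0.25), and Col4a2, transcribed from the same locus, gave -0.94 ± 0.24. The groups did not overlap for either gene. Hspg2, the proteoglycan perlecan, stood at 164 to 187 CPM against 119 to 147 CPM (-0.45 ± 0.13). The sign of these values was opposite to that of Col4a3.

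Signals and cells that make matrix were also lower by estimate. Of 25 genes of TGF-beta ligands, receptors and response, 7 were lower at an unadjusted p under 0.05 (28.0%, against 3.38% of all genes) and 24 had a negative estimate, as had 8991 of all 17315 genes. The median was -0.421. The ligand Tgfb1 stood at 33.9, 39.5 and 33.1 CPM in KO_PBS and at 25.8, 25.3 and 14.6 CPM in KO_antimiR21 (-0.70 ± 0.22), without overlap. The receptor Tgfbr2 overlapped, at 172 to 185 CPM against 105, 174 and 117 CPM (-0.45 ± 0.20). The response gene Cyr61, a matricellular protein, gave -1.65 ± 0.50, but KO_PBS 3, at 76.1 CPM, lay within the inhibitor range of 61.7 to 78.5 CPM. The list's median was -0.253 with the library code as a covariate and -0.659 without KO_antimiR21 2.

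Markers of myofibroblasts and pericytes, the contractile cells of a scar, had 5 of 15 genes lower at an unadjusted p under 0.05 (33.3%, against 3.38% of all genes), a negative estimate for all 15 and a median of -0.644. Tagln, an actin-binding protein of smooth muscle, stood at 355, 263 and 162 CPM in KO_PBS against 120, 105 and 69.9 CPM (-1.40 ± 0.29, DESeq2 adjusted p = 0.00741). Acta2, smooth muscle actin, stood at 161, 200 and 101 CPM against 89, 64.9 and 47 CPM (-1.2 ± 0.29). The groups did not overlap for either gene, and KO_PBS 3 was the lowest PBS library in both. Pdgfrb, the pericyte receptor for platelet-derived growth factor, was even in KO_PBS (104 to 107 CPM) and lower in KO_antimiR21 at 87.6, 60.4 and 39.3 CPM (-0.76 ± 0.26). Over the list, 5 of the 15 genes were lower without overlap (33.3%, against 6.85% of all genes). By library the list's median was 0.088, 0.136 and -0.308 in KO_PBS, and -0.274, -0.725 and -0.943 in KO_antimiR21. KO_antimiR21 1 thus lay within the PBS range. The list's median log2 fold change was -0.285 with the code as a covariate. The lower genes of lowest p over the whole table also held Cdh11, a cadherin (-1.2 ± 0.29), the thrombin receptor F2r (-1.01 ± 0.21, DESeq2 adjusted p = 0.0252), Lhfp (-1.10 ± 0.22, DESeq2 adjusted p = 0.0128) and the endocytic receptor Lrp1 (-0.70 ± 0.16). Isyna1, the enzyme that makes inositol phosphate from glucose phosphate, completes the lower genes named by lowest p, at 63.8 to 76.6 CPM against 40.7 to 48.7 CPM (-0.63 ± 0.12, DESeq2 adjusted p = 0.00741).

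**Figure D3:**
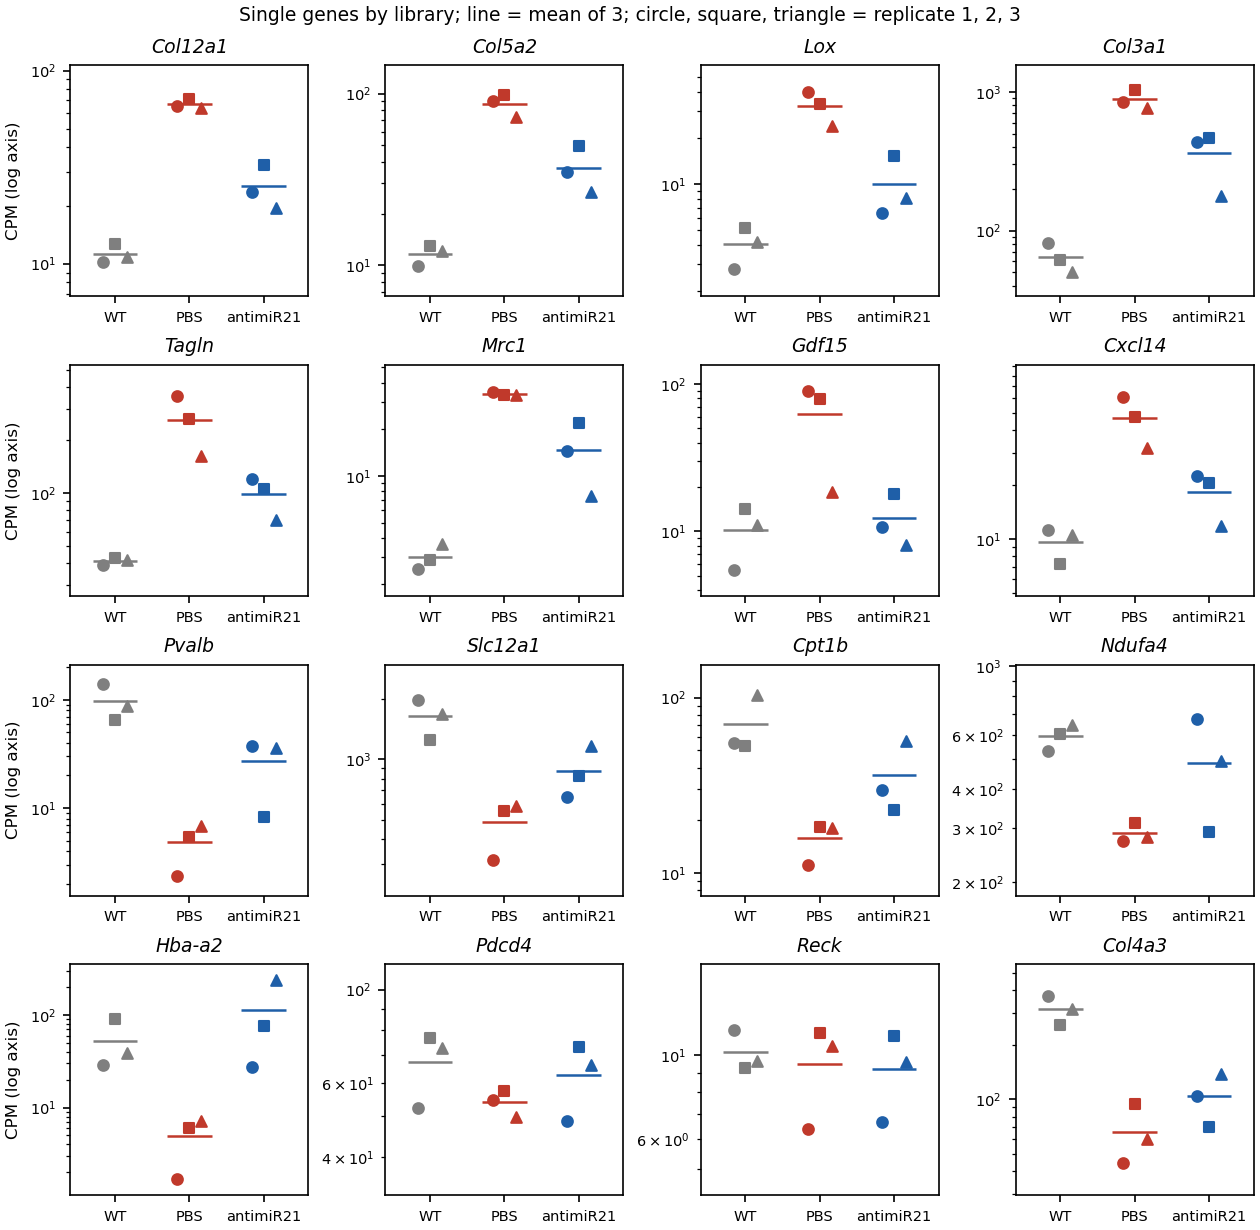
Each panel is 1 gene, with CPM on a log axis for the 3 WT, 3 KO_PBS and 3 KO_antimiR21 libraries. Symbols mark replicates 1 (circle), 2 (square) and 3 (triangle), and lines the mean of 3. For Col12a1 all inhibitor libraries (19.4 to 32.6 CPM) lie below all PBS libraries (63.7 to 71 CPM), while for Ndufa4 KO_antimiR21 2 lies among the PBS libraries.

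Tubular injury genes gave a median of -0.648 over 26 genes. Of these, 6 were lower at an unadjusted p under 0.05 (23.1%, against 3.38% of all genes) and 0 higher. The list also held Umod, which is counted again among the thick limb markers below, and Kl (Klotho). Both are genes of tubule function, and they enter the counts and the median. Gdf15, a stress-induced hormone of the TGF-beta family, stood at 89.7, 79.5 and 18.5 CPM in KO_PBS and at 10.7, 18 and 8.09 CPM in KO_antimiR21 (-2.35 ± 0.59, DESeq2 adjusted p = 0.0252). KO_PBS 3 lay just above the highest inhibitor library, so this difference rested on the pair of PBS libraries with code L4. Krt8, a keratin of simple epithelia that rises with injury, stood at 465 to 664 CPM against 250 to 411 CPM (-0.63 ± 0.25). The classical urinary injury markers overlapped widely. Havcr1, the phagocytic receptor KIM-1, was at 77.4, 115 and 145 CPM against 53.5, 113 and 43 CPM (-0.68 ± 0.54, edgeR adjusted p = 0.815), and Lcn2, the iron-siderophore carrier NGAL, was at 831, 532 and 288 CPM against 174, 510 and 315 CPM (-0.72 ± 0.83, edgeR adjusted p = 0.894). The list's median was -0.335 with the code as a covariate, -0.382 without KO_PBS 1 and -0.384 without KO_antimiR21 3. By library the list's median was 0.349, -0.039 and -0.228 in KO_PBS, and -0.556, -0.214 and -1.235 in KO_antimiR21. KO_antimiR21 2 thus lay within the PBS range.

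Immediate early genes, most of them for transcription factors, respond within minutes to stimuli and to handling of tissue. All 15 tested were lower by estimate, 9 of them at an unadjusted p under 0.05 (60%, against 3.38% of all genes, median -1.01). Myc stood at 56.7, 48.6 and 29.8 CPM in KO_PBS against 23.7, 28 and 17 CPM (-0.97 ± 0.26), and Jun at 126, 131 and 96.4 CPM against 61, 82.5 and 51.0 CPM (-0.86 ± 0.29). By library the list's median was 0.476, 0.169 and -0.684 in KO_PBS 1, 2 and 3, against -1.2, -0.706 and -1.35 in KO_antimiR21. KO_PBS 3, the PBS library with code L5, lay next to the inhibitor range, and with the code as a covariate the median was -0.318. The part of this group in the lower values of injury, TGF-beta response and chemokine genes was not tested.

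Among immune cells, macrophage markers gave a median of -0.582, with 5 of 25 lower at an unadjusted p under 0.05 (20%, against 3.38% of all genes) and 0 higher. The members of lowest p were Cd163, Mrc1 and Cx3cr1, none of which overlapped between the groups. Mrc1, the mannose receptor, stood at 34.6, 33.3 and 33.4 CPM in KO_PBS and at 14.4, 22 and 7.39 CPM in KO_antimiR21 (-1.21 ± 0.33). Cx3cr1, the fractalkine receptor, stood at 37.6, 38 and 42.9 CPM against 28.9, 30.5 and 12.8 CPM (-0.71 ± 0.28). Cd163, the scavenger receptor for haemoglobin, was low throughout, at 1.74 to 2.82 CPM against 0.294 to 0.677 CPM (-2.20 ± 0.39, DESeq2 adjusted p = 0.00414). F13a1, a transglutaminase chain made by macrophages, stood at 3.74 to 5.75 CPM against 0.735 to 2.09 CPM (-1.94 ± 0.43, DESeq2 adjusted p = 0.0252). General markers overlapped between the groups: Emr1 (F4/80) stood at 17.7, 23 and 29.6 CPM against 15.1, 35.5 and 13.7 CPM (-0.13 ± 0.39, edgeR adjusted p = 0.976), and the growth factor receptor Csf1r gave -0.21 ± 0.13 (edgeR adjusted p = 0.751). The summed level of the 25 markers was 1589 to 2091 CPM in KO_PBS and 1393, 1683 and 765.3 CPM in KO_antimiR21, so KO_antimiR21 2 lay within the PBS range. The median was -0.233 without KO_antimiR21 3, -0.376 without KO_PBS 1 and -0.282 with the code as a covariate.

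Of 31 chemokine and NF-kappaB genes, 6 were lower at an unadjusted p under 0.05 (19.4%, against 3.38% of all genes) and 0 higher. The median was -0.454, or -0.224 without KO_antimiR21 3 and -0.283 with the code as a covariate. Cxcl14, a chemokine of epithelium and fibroblasts, stood at 61.2, 47.3 and 31.8 CPM against 22.3, 20.4 and 11.8 CPM (-1.36 ± 0.31, DESeq2 adjusted p = 0.0353). The inflammatory cytokine Il1b stood at 22.6, 8.78 and 9.75 CPM against 7.84, 5.90 and 3.86 CPM (-1.22 ± 0.42). Ccl2, which draws monocytes, overlapped at 52.4 to 61 CPM against 53.3, 47.2 and 28.4 CPM (-0.42 ± 0.65, edgeR adjusted p = 0.933). In the interleukin-6 and STAT3 list 4 of 21 were lower at an unadjusted p under 0.05 (19.0%, against 3.38%), among them the feedback inhibitor Socs3 (59.9 to 96.5 against 24.1 to 41.9 CPM, -1.04 ± 0.33) and the oncostatin M receptor Osmr (-0.85 ± 0.27). The median of that list was -0.325, and ran from -0.55 without KO_antimiR21 2 to -0.152 without KO_antimiR21 3. Of 18 complement genes 2 were lower (11.1%), and the median of -0.394 ran from -0.688 to -0.182 without the same 2 libraries. Among 26 interferon response genes and 18 T cell markers, 0 were higher or lower at an unadjusted p under 0.05, with medians of -0.226 and -0.173. These 2 medians were -0.409 and -0.309 without KO_antimiR21 2 but close to 0 without KO_antimiR21 3, at -0.009 and -0.017. The interferon median was -0.073 without KO_PBS 1, the T cell median was -0.076 without KO_PBS 2, and the interferon median was 0.053 with the code as a covariate.

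**Figure D4:**
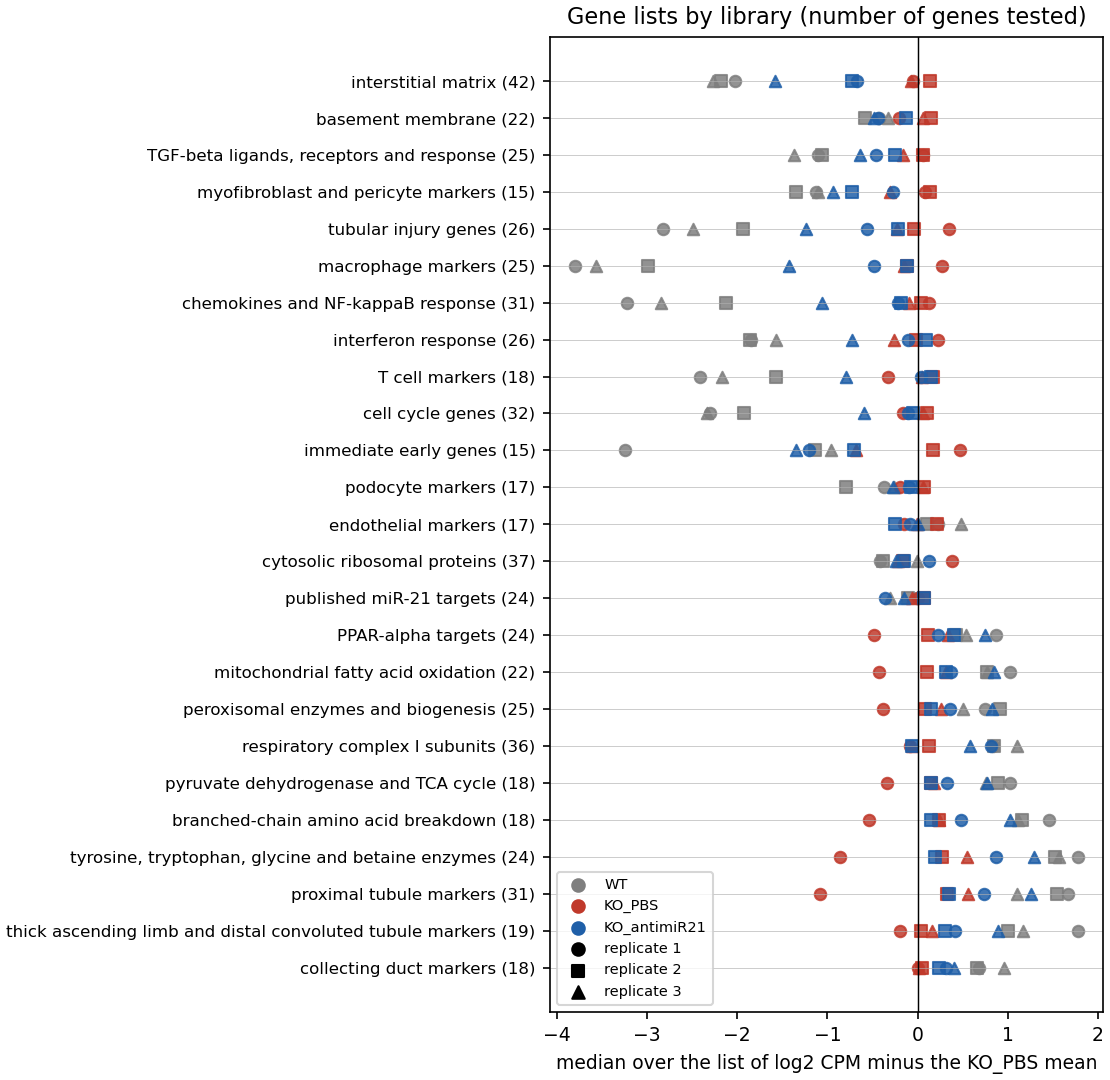
Each row is 1 gene list with its number of genes tested, and each point is 1 library's median over the list of log2 CPM minus the KO_PBS mean. Grey is WT, red KO_PBS and blue KO_antimiR21, with symbols for the replicate number. In many lists KO_antimiR21 3 lies nearest to WT and KO_antimiR21 2 nearest to KO_PBS, but for interstitial matrix KO_antimiR21 2 (-0.726) is also outside the PBS range.

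Transport genes of the nephron stood higher by estimate. The list of thick limb and distal convoluted tubule markers held 19 genes, of which 8 were higher at an unadjusted p under 0.05 (42.1%, against 3.57% of all genes) and 7 had no overlap (36.8%, against 3.83%), with a median of 0.57. Slc12a1, the sodium-potassium-chloride cotransporter of the thick limb, stood at 313, 550 and 587 CPM in KO_PBS, at 647, 829 and 1161 CPM in KO_antimiR21 and at 1250 to 1986 CPM in WT. All inhibitor libraries were above all PBS libraries and below all WT libraries (0.86 ± 0.31). Pvalb, a calcium buffer of the early distal convoluted tubule, stood at 2.33, 5.41 and 6.77 CPM against 37.3, 8.25 and 35.6 CPM (2.48 ± 0.60, DESeq2 adjusted p = 0.0128), with KO_antimiR21 2 just above the PBS range. Ppp1r1a, a phosphatase inhibitor, stood at 31.8, 53.8 and 47.4 CPM against 120, 61.1 and 115 CPM (1.15 ± 0.33), and Bsnd, a chloride channel subunit, gave 0.81 ± 0.25. Umod, the abundant urinary protein of the thick limb, overlapped, at 1591, 2869 and 3416 CPM against 2720, 4340 and 4654 CPM (0.57 ± 0.35, edgeR adjusted p = 0.747). The list's median was 0.446 to 0.675 with 1 library left out and 0.389 with the code as a covariate.

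Proximal tubule markers had a larger median, 0.727 over 31 genes, but less order between the groups. Only 5 were higher at an unadjusted p under 0.05 (16.1%, against 3.57% of all genes) and 1 had no overlap (3.23%, against 3.83%). That gene was Keg1, at 352, 624 and 581 CPM in KO_PBS against 1312, 672 and 1409 CPM (1.12 ± 0.35). Slc22a7, an organic anion transporter, stood at 0.685, 5.57 and 2.27 CPM against 21.2, 3.54 and 23 CPM (2.50 ± 0.80), and the protease Napsa at 1140 to 1632 CPM against 3102, 1484 and 2902 CPM (0.77 ± 0.30). In both, KO_antimiR21 2 lay within the PBS range. By library the list's median was -1.09, 0.323 and 0.564 in KO_PBS 1, 2 and 3 and 0.742, 0.345 and 1.26 in KO_antimiR21, so a low KO_PBS 1 added to the difference. The median was 0.345 without KO_PBS 1, 0.366 without KO_antimiR21 3 and 0.202 with the code as a covariate. Collecting duct markers gave 0.251 over 18 genes, with the anion exchanger Slc4a1 at 4.77, 16.3 and 19.8 CPM against 28.2, 24.7 and 43.3 CPM (1.24 ± 0.45) and the proton pump subunit Atp6v1g3 at 0.61 ± 0.19, both without overlap. Slc4a1 is also the band 3 protein of red cells, and erythrocyte genes were higher in the same libraries (Hba-a2 at 4.52 ± 0.90), so its value cannot be assigned to the duct.

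Genes of mitochondrial respiration stood higher by estimate but split the inhibitor libraries. All 36 tested subunits of respiratory complex I had a positive estimate, with 18 at an unadjusted p under 0.05 (50%, against 3.57% of all genes) and a median of 0.477, yet 0 had groups without overlap. By library their median was 0.815, -0.059 and 0.587 in KO_antimiR21 1, 2 and 3, and -0.081 to 0.122 in KO_PBS. Ndufa4 stood at 272, 311 and 282 CPM in KO_PBS and at 676, 292 and 495 CPM in KO_antimiR21 (0.76 ± 0.27). Ndufv2 and Ndufs3, subunits of the electron entry module, gave 0.59 ± 0.21 and 0.54 ± 0.20. Complexes II to V were alike, with all 36 estimates positive, 10 at an unadjusted p under 0.05 (27.8%), 0 without overlap and a median of 0.479, led by Atp5k (0.63 ± 0.23), Uqcrb (0.55 ± 0.21) and Cox6b1 (0.62 ± 0.24). The complex I median was 0.303 without KO_antimiR21 1, 0.708 without KO_antimiR21 2 and 0.539 with the code as a covariate, and that of complexes II to V was 0.322, 0.709 and 0.514 in the same fits.

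All 22 genes of mitochondrial fatty acid oxidation, which feeds the chain, had a positive estimate. At an unadjusted p under 0.05 there were 7 (31.8%, against 3.57% of all genes), 4 had no overlap (18.2%, against 3.83%) and the median was 0.487. That median was 0.307 without KO_antimiR21 3 and 0.247 with the code as a covariate. By library their median was 0.369, 0.314 and 0.853 in KO_antimiR21 and -0.432, 0.107 and 0.312 in KO_PBS. KO_antimiR21 2 thus lay barely above the highest PBS library. Cpt1b, which loads fatty acids for entry into mitochondria, stood at 11.2, 18.3 and 18.1 CPM in KO_PBS and at 29.9, 22.9 and 56.7 CPM in KO_antimiR21 (1.2 ± 0.39). Cpt1b is known as the form of muscle and brown fat, and KO_antimiR21 3, its highest inhibitor library, was the one with high fat-cell genes, whose part here was not tested. Etfb, an electron carrier of this pathway, gave 0.82 ± 0.27, and Decr1, which handles unsaturated chains, 0.60 ± 0.21. PPAR-alpha targets gave 4 of 24 at an unadjusted p under 0.05 (16.7%), 5 without overlap (20.8%) and a median of 0.491. It was 0.224 without KO_PBS 1, 0.844 without KO_PBS 3 and 0.131 with the code as a covariate. Fabp3, a fatty acid carrier protein, stood at 30.1, 32 and 34.1 CPM against 56, 38 and 61.5 CPM (0.69 ± 0.21), and the carnitine carrier Slc25a20 at 46.7 to 62 CPM against 65 to 81.3 CPM (0.41 ± 0.17). Of 20 regulators of these pathways 3 were higher at an unadjusted p under 0.05 (15.0%) and 1 had no overlap (5.0%, against 3.83%). Their median was 0.261, or 0.126 without KO_PBS 1, 0.463 without KO_PBS 3, 0.118 without KO_antimiR21 3 and -0.007 with the code as a covariate. Among them, Esrra, a nuclear receptor of mitochondrial genes, gave 0.46 ± 0.17 and the mitochondrial deacetylase Sirt3 gave 0.78 ± 0.28, both with overlap.

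Of 25 peroxisomal genes 3 were higher at an unadjusted p under 0.05 (12%, against 3.57% of all genes, median 0.441), among them catalase, Cat, at 175, 348 and 355 CPM against 533, 300 and 689 CPM (0.79 ± 0.34). Of 18 genes of pyruvate dehydrogenase and the TCA cycle 3 were higher (16.7%, median 0.428), with fumarase, Fh1, at 0.57 ± 0.20 and Pdhb, the one member without overlap, at 0.47 ± 0.17. Breakdown of branched-chain amino acids gave 6 of 18 (33.3%, median 0.591), with Mccc2 at 0.70 ± 0.27 and Bckdha at 0.57 ± 0.23. The enzymes of tyrosine, tryptophan, glycine and betaine metabolism gave 7 of 24 (29.2%) and a median of 0.797. Fah, the last enzyme of tyrosine breakdown, stood at 89.1, 154 and 158 CPM against 308, 141 and 308 CPM (0.91 ± 0.33), and Haao, of tryptophan breakdown, at 21.8, 58 and 63.3 CPM against 150, 53.7 and 145 CPM (1.28 ± 0.46). In both, KO_antimiR21 1 and 3 were above every PBS library and KO_antimiR21 2 was below KO_PBS 2. In gluconeogenesis and fructose handling 4 of 12 were higher (33.3%, median 0.721) and 0 had no overlap, with the fructokinase Khk at 0.93 ± 0.36. In all 5 of these lists the median of KO_antimiR21 2, 0.147 to 0.341, lay within the PBS range. With the code as a covariate the list medians were 0.214 (peroxisome), 0.271 (TCA cycle), 0.382 (branched-chain), 0.402 (tyrosine and others) and 0.233 (gluconeogenesis). Without KO_antimiR21 3 they were 0.274, 0.246, 0.283, 0.506 and 0.477 in that order, and without KO_PBS 1 they were 0.313, 0.284, 0.394, 0.489 and 0.441. Without KO_PBS 3 the gluconeogenesis median was 1.12.

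Erythrocyte genes had the highest median of all lists, 3.62 over 5 genes, with 3 higher at an unadjusted p under 0.05 (60%, against 3.57% of all genes). Hba-a2, an alpha-globin, stood at 1.70, 6.01 and 7.21 CPM in KO_PBS, at 27.5, 76.9 and 237 CPM in KO_antimiR21 and at 29.0 to 90.1 CPM in WT (4.52 ± 0.90, DESeq2 adjusted p = 3.89e-06). Hbb-b1, a beta-globin, stood at 1.53, 6.38 and 7.77 CPM against 19.3, 71.7 and 197 CPM (4.20 ± 0.91, DESeq2 adjusted p = 0.00741), and Alas2, the red-cell enzyme of haem synthesis, gave 3.62 ± 0.84 (DESeq2 adjusted p = 0.0142). Both globins belong to families of near-identical copies among which reads can be split, so single members are uncertain. KO_PBS libraries lay below WT libraries as well as inhibitor libraries in these genes. How much blood each kidney held was not measured. The part of blood content in other results was not tested.

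The remaining higher genes of lowest p had no overlap between the groups. S100g, the calcium carrier calbindin-D9k of the distal nephron, stood at 131, 150 and 130 CPM in KO_PBS, at 396, 177 and 315 CPM in KO_antimiR21 and at 499 to 700 CPM in WT (1.11 ± 0.28). Bnip3, a mitophagy receptor, stood at 72.9, 81.6 and 98.6 CPM against 135, 111 and 169 CPM (0.71 ± 0.18), beside a WT range of 150 to 167 CPM. Cacnb4, a calcium channel subunit, gave 1.14 ± 0.26, the ubiquitin ligase Rnf167 0.61 ± 0.15, Plekhb1 0.84 ± 0.19, 2210020M01Rik 0.94 ± 0.23 and the Y-box protein gene Msy2 1.63 ± 0.41. In each of these 7 genes KO_antimiR21 2 was the lowest inhibitor library. The 2 other higher genes called by DESeq2, GLUT4 and AK039536, were at 0 in all KO_PBS libraries and also at 0 in 2 and in 1 of the inhibitor libraries, so no fold is given.

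The published targets of miR-21, 6 of whose sites are shown above, did not stand higher as a group. Of 24 tested, 0 were higher and 3 lower at an unadjusted p under 0.05 (12.5%, against 3.38% of all genes), and 7 had a positive and 17 a negative estimate. The median was -0.177, but it was -0.061 without KO_PBS 3, -0.069 without KO_antimiR21 1, -0.089 without KO_PBS 1, -0.118 without KO_antimiR21 3 and -0.106 with the code as a covariate. Pdcd4 stood at 54.8, 57.3 and 49.7 CPM in KO_PBS and at 48.6, 72.9 and 66.1 CPM in KO_antimiR21 (0.21 ± 0.19, 95% interval -0.22 to 0.64, edgeR adjusted p = 0.843). Reck stood at 6.39, 11.4 and 10.6 CPM against 6.67, 11.2 and 9.63 CPM (-0.04 ± 0.27, 95% interval -0.66 to 0.57, edgeR adjusted p = 0.989), and Timp3 gave 0.10 ± 0.25 (edgeR adjusted p = 0.968). Ppara was the least even, at 7.78, 17.6 and 36.9 CPM against 8.73, 38.7 and 29.1 CPM (0.30 ± 0.71, 95% interval -1.30 to 1.90, edgeR adjusted p = 0.966). The intervals of Pdcd4 and Reck lie below a log2 fold change of 1, and that of Ppara does not. All 3 intervals also hold smaller positive values, so they do not exclude a smaller rise.

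Sprouty genes and cytoskeletal targets stood lower. Spry1 was at 34, 26.7 and 21.4 CPM in KO_PBS and at 19.1, 19.6 and 11.2 CPM in KO_antimiR21 (-0.72 ± 0.29), without overlap, and Spry2 at 12.7 to 13 CPM against 9.89 to 10.9 CPM (-0.30 ± 0.16, edgeR adjusted p = 0.716). Tpm1, an actin-binding tropomyosin with no site in the searched 3' UTR, had the lowest p of the list, at 171, 258 and 190 CPM against 86.8, 152 and 92.9 CPM (-0.90 ± 0.24). Rhob, a small GTPase, gave -0.55 ± 0.23. The lowest estimate of the list, -0.977, was that of a member not named here. The largest positive value was that of Mpv17l, a membrane protein linked to mitochondrial oxidant handling, at 60.3, 294 and 174 CPM against 403, 193 and 520 CPM (1.08 ± 0.52). Its libraries overlapped, and WT libraries stood above all knockout libraries.

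**Figure D5:**
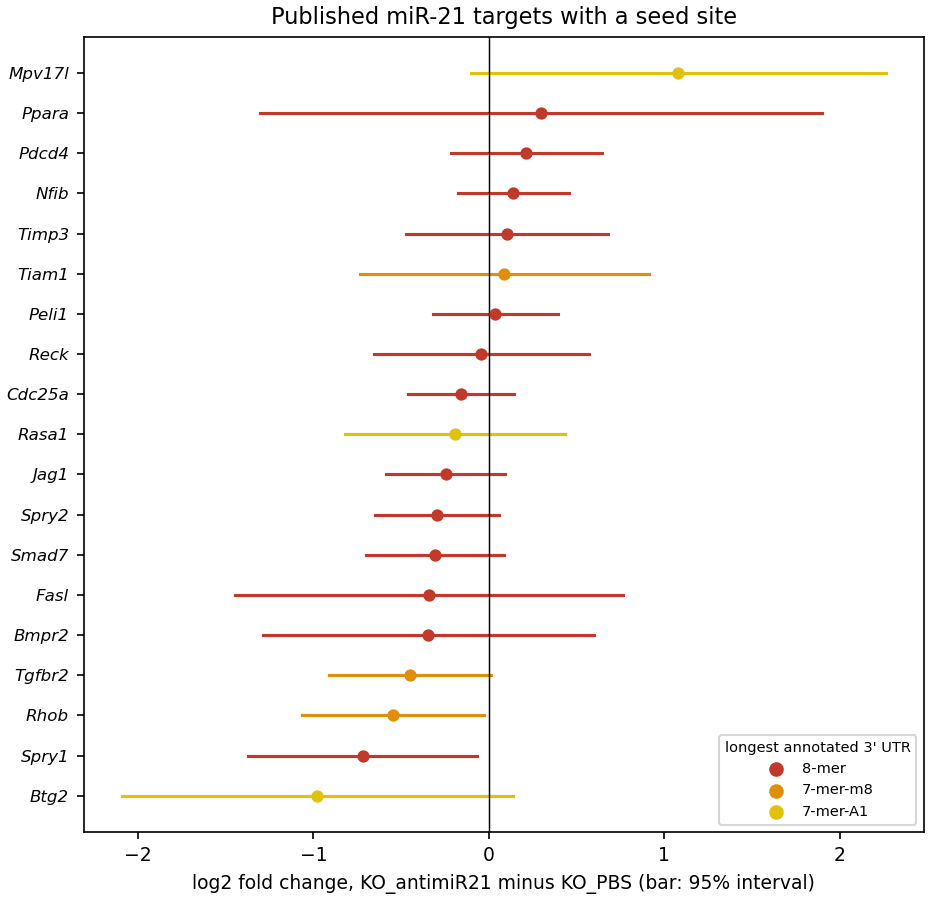
Each row is 1 of the 19 published miR-21 targets with a seed site in the searched 3' UTR, with its log2 fold change (KO_antimiR21 minus KO_PBS) as a point and the 95% interval as a bar. Colours give the best such site. Most intervals cross 0, and 8-base sites (red) lie on both sides, from Spry1 at -0.72 to Ppara at 0.30.

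Sites were then counted over all genes. A 3' UTR was found for 14204 of the 17315 genes (82.0%), and 343 of those searched (2.41%) held ATAAGCTA. Their median log2 fold change was 0.025, and 53.6% of them had a positive estimate, against -0.025 and 45.6% over all searched genes. At an unadjusted p under 0.05, 17 were higher (4.96%, against 3.30% of those searched) and 9 lower (2.62%, against 3.86%). For the 1164 genes with the 7-base site ATAAGCT, with or without the final A, the median was -0.004, for 652 genes with TAAGCTA alone -0.013, and for 12388 genes with none of these -0.027. These medians lay closer together than the libraries of 1 group did. By library the median of the 8-base group was -0.114, 0.053 and 0.065 in KO_PBS and -0.184, 0.123 and 0.107 in KO_antimiR21, so the lowest library was an inhibitor library. Genes with the 8-base site had longer 3' UTRs (median 2950 bases against 1324), and the 3556 genes with the longest 3' UTRs (at least 2443 bases) also had their lowest medians in KO_antimiR21 1 and KO_PBS 1 (-0.104, 0.032 and 0.078 in KO_PBS and -0.226, 0.079 and 0.02 in KO_antimiR21). The part of 3' UTR length in the site values was not tested. Only one strand, that of the message, was searched, and a match is not evidence that a site is used.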

How the data were processed

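Messenger RNA of whole mouse kidney was sequenced in 9 libraries, 3 a group. The authors deposited expected counts per gene symbol, made with Bowtie and RSEM on mm9, per the submitters' processing notes. They also deposited a log2 matrix, and limma is named in the same notes. Their versions, the annotation and the strand setting are not given in the sources used here. Each column of that log2 matrix equalled log2 CPM (0.5 added to counts, 1 to the library size) plus 1 constant, to within 5.1e-14. Expected counts were rounded and filtered with filterByExpr. All 9 libraries entered 1 edgeR quasi-likelihood fit with 3 group means and TMM scaling, and the contrast was KO_antimiR21 minus KO_PBS. Genes were called at a two-sided Benjamini-Hochberg adjusted p under 0.05 over 17315 genes. Values are CPM per library and log2 fold change ± SE (n = 3 a group). Lists had no set test. Named genes were Col4a3, the 10 higher and 10 lower genes of lowest p with mean log2 CPM of at least 2 (0 passed), and, per list, the 3 members of lowest p. Genes called by DESeq2 and well-known list members were added after their values were seen, and some genes that the rule names are not reported here. The members, lists and rule were chosen with earlier results of these data known, and 51 lists were measured. Replicates were not copies, with a chi-square per gene of 31.2 to 140.1 within groups. The fits were tested on simulated data. There DESeq2, somewhat liberal at 3 libraries a group, was allowed a higher share of false calls than edgeR and limma. Alternatives were library-size scaling, DESeq2, limma voom with and without quality weights, no filter, the 6 knockout libraries only, a replicate block, the library code and each library left out. A limma fit of the deposited log2 matrix was chosen after seeing the data. Fits used edgeR 4.0.16, DESeq2 1.42.0 and limma 3.58.1 in R 4.3.3. Tables and plots used numpy 2.4.6, pandas 2.3.3 and matplotlib 3.10.9 in Python 3.11.15.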

Additional observations from a re-analysis of the deposited data

How the results depend on the processing

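In the fits run, edgeR and limma called 0 genes under every alternative, and DESeq2 called 6 higher and 12 lower. All 16 of the genes named with a fold change that DESeq2 called kept their direction. They were picked for their differences in these same counts, so this was close to fixed in advance. With 1 library left out, 0 genes were called in either direction, and the number at an unadjusted p under 0.05 ran from 201 to 1543 higher and from 202 to 1015 lower. The fewest came without KO_antimiR21 3 and the most without KO_antimiR21 2. With the library code as a covariate 120 were higher and 66 lower. Same-numbered samples of the groups had deviations correlated at 0.438, -0.0922 and 0.146, so the numbers were not taken to pair them, and with a replicate block 0 genes were called (634 higher and 818 lower unadjusted). The median of genes with the 8-base site was -0.03 to 0.101 with 1 library left out and -0.097 with library-size scaling. Col4a3 ran from 0.42 to 1. Of 765 list medians 36 moved by more than the spread between replicates, 12 of them with the code as a covariate. With that covariate Col4a4 was at -0.26, Col4a5 at -0.18, Lcn2 at 0.22, Ppara at -0.52, Timp3 at -0.02 and Nphs1 at -0.13. With library-size scaling, which moved the median of all genes from -0.011 to -0.141, Col4a5 was at -0.03 and Timp3 at -0.02, so both signs turned within that shift. With 1 library left out Col4a4 ran from -0.13 to 0.42, Col4a5 from -0.10 to 0.29, Emr1 from -0.68 to 0.13, Ppara from -0.11 to 1.04, Reck from -0.24 to 0.14, Timp3 from -0.03 to 0.21 and Nphs1 from -0.07 to 0.35. The cause of the sign changes with the covariate or with a library left out was not tested. Depth was similar in all libraries. The part of depth, and of having 3 libraries a group, in the number of genes called was not tested.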

Other observations

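Other cell types and processes had smaller medians. Of 17 podocyte markers 1 was lower at an unadjusted p under 0.05 (5.88%, against 3.38% of all genes) and 0 higher, while 4 were lower without overlap (23.5%, against 6.85%). Their median log2 fold change was -0.203, and -0.045 without KO_PBS 3. The slit diaphragm gene Nphs1 overlapped at 18.3 to 34.7 CPM against 27.0 to 34.9 CPM (0.15 ± 0.37, edgeR adjusted p = 0.969). Of 17 endothelial markers 1 was lower at an unadjusted p under 0.05 (5.88%, against 3.38%). It was Eng, a co-receptor for TGF-beta ligands (-0.58 ± 0.22, edgeR adjusted p = 0.707). The endothelial median of -0.155 was 0.039 without KO_PBS 2. Among 32 cell cycle genes 4 were lower at an unadjusted p under 0.05 (12.5%) and 6 were lower without overlap (18.8%), led by the replication helicase subunit Mcm2 (27.7 to 36.2 CPM against 21.2 to 26.7 CPM, -0.44 ± 0.14, edgeR adjusted p = 0.707). Their median was -0.201, or 0.008 without KO_antimiR21 3 and -0.13 without KO_PBS 2. Cytosolic ribosomal protein genes gave a median of -0.097, or 0.126 without KO_PBS 1, with 0 of 37 at an unadjusted p under 0.05 in either direction.

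Detoxification genes stood higher by estimate. Of 25 cytochrome P450 genes 3 were higher (12%, against 3.57% of all genes) and 1 lower (4.0%, against 3.38%) at an unadjusted p under 0.05. Their median was 0.837, or 0.519 without KO_antimiR21 3 and 0.359 with the library code as a covariate. Cyp1a1, which oxidises aromatic compounds, stood at 0.247 to 0.87 CPM in KO_PBS and at 1.13 to 2.25 CPM in KO_antimiR21 (1.63 ± 0.48, edgeR adjusted p = 0.707), and Cyp1b1, its relative of stromal cells, at 82.2 to 101 CPM against 28.7 to 68.0 CPM (-0.85 ± 0.29, edgeR adjusted p = 0.707). Neither pair of groups overlapped, and the values of the pair had opposite signs. Of 19 glutathione S-transferases 5 were higher (26.3%, median 0.36, and 0.547 without KO_antimiR21 2), among them Gstt3 (0.49 ± 0.15, edgeR adjusted p = 0.707). Of 21 antioxidant genes 4 were higher (19.0%, against 3.57% of all genes) and 1 lower (4.76%, against 3.38%) at an unadjusted p under 0.05. Without overlap, 0 were higher and 1 lower (4.76%, against 6.85%). Their median was 0.26, and 0.149 without KO_PBS 1. Superoxide dismutase Sod1 stood at 237, 318 and 293 CPM in KO_PBS and at 584, 282 and 527 CPM in KO_antimiR21 (0.72 ± 0.27, edgeR adjusted p = 0.707).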
